A study of Mus musculus with 18 samples.

Results

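The genes described here are 36 that encode the T cell receptor (TCR) complex and the proteins that act first when it is engaged. They comprise 7 receptor chains and co-receptors, 6 kinases, 8 phosphatases and receptor regulators, 13 adaptors, exchange factors and lipid enzymes, and 2 proteins of the branch that leads to NF-kB. They were taken by gene symbol from a deposited table of 23951 distinct symbols, and all 36 were found. The unit is RPKM (reads per kilobase of transcript, scaled to library size), a level that can be compared between genes. All 36 reached 1 RPKM in at least 3 libraries, as did 11099 genes in all. The source was naive T cells from mice of the C57BL/6 strain, which had been sorted as CD4+, CD25- and high for CD62L, with 3 libraries for each of 6 genotypes. The control and deleted groups are labelled WT Tg and DKO Tg, here WT and DKO; the sources do not say whether their mice carried a transgene. In cluster Tg, T cells over-expressed the whole cluster, and in the single transgenics (miR-23 Tg, miR-24 Tg, miR-27 Tg) they over-expressed just the microRNA named. In DKO, T cells lacked both the a and the b cluster. The promoter of the transgenes, the means of deletion, the age of the mice and whether each library came from a separate animal are likewise unstated. For miR-23 Tg, the last pair of values given below comes from a pair of columns with 1 shared name, so they carry no replicate number. So p-values here reflect only the variation among these libraries, and that may be technical.

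The TCR has no enzyme activity of its own. Its CD3 and zeta chains carry tyrosine motifs that the co-receptor-bound kinase Lck phosphorylates, and Zap70 docks on them and phosphorylates the adaptors Lat and Lcp2. These recruit Plcg1, Vav1, Grb2 with Sos1, and Nck1 with Was, which start calcium, Ras and actin responses, while Csk, phosphatases and diacylglycerol kinases hold the signal back. The miR-23 cluster is transcribed as a single precursor of miR-23, miR-27 and miR-24. A microRNA lowers the level or the translation of mRNAs that pair with its seed, bases 2 to 8, mostly in the 3′ UTR.

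Most of the 36 genes were expressed at high levels, and few passed the test between genotypes. The actin adaptor Nck1 was higher in cluster Tg (31.2 ± 3.15 RPKM) and the receptor regulator Sla in miR-27 Tg (102 ± 3.19) than in WT (21.0 ± 2.62 and 68.8 ± 10.4). The level of the kinase Lck varied over the genotypes, with 423 ± 6.67 RPKM in miR-24 Tg, 638 ± 17.7 in WT and 904 ± 331 in miR-27 Tg, where 1 library stood far above the others (mean ± SD, n = 3). In DKO none of the 36 passed, and 0% of all genes tested did. Without 2 libraries that stood apart from the rest, more of the 36 passed in every transgenic comparison, Lck and Grb2 among them as lower in cluster Tg and miR-24 Tg. The share of all genes that passed rose too, from 8.48% to 29.1% in cluster Tg and from 3.59% to 17.5% in miR-24 Tg. It rose from 8.95% to 20.0% in miR-27 Tg and from 0.0450% to 3.89% in miR-23 Tg.

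The mature microRNAs are shown because their seeds set which transcripts could pair with them; the seed is in capitals. The sequences are RefSeq's for the mouse build GRCm38.p6.
mmu-miR-23a-3p: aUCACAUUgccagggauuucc
mmu-miR-27a-3p: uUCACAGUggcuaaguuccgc
mmu-miR-27b-3p: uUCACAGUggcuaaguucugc
mmu-miR-24-3p: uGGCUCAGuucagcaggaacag
In the a cluster, miR-23a-3p lies at chr8:84208563-84208583, miR-27a-3p at chr8:84208727-84208747 and miR-24-3p, from Mir24-2, at chr8:84208875-84208896, all on the plus strand. In the b cluster, miR-27b-3p lies at chr13:63300760-63300780 and the copy of miR-24-3p from Mir24-1 at chr13:63301251-63301272, also on the plus strand. The b cluster also has a miR-23, miR-23b-3p, which is not shown because the reference used had no entry for it. The 2 forms of miR-27 have the same seed, so a transcript that pairs with one seed pairs with the other. The seeds of miR-23 and miR-27 begin alike and that of miR-24 does not.

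The libraries differed in ways that touch every result below. Relative depth, estimated from genes below 0.1 RPKM, was lowest, at 0.634, for the third miR-27 Tg library and highest, at 1.47, for the third cluster Tg library, with WT replicate 1 set to 1, and absolute depth is unknown. Replicate 3 of miR-27 Tg and replicate 3 of DKO stood apart from the rest, with scores of 122.5 and 51.3 on the first principal component against at most -0.317 in the other 16 libraries. The second component put all libraries of miR-24 Tg, miR-27 Tg and cluster Tg (at most -6.61) on the other side from those of WT, DKO and miR-23 Tg (at least 16.4). Markers of other cells also differed between genotypes. The summed RPKM of 8 B cell markers was 5.02 to 6.41 in WT, 4.98 to 7.37 in DKO and 5.003 to 20.2 in miR-23 Tg, but 18.4 to 38.0 in cluster Tg, 19.2 to 83.0 in miR-24 Tg and 28.6 to 144.1 in miR-27 Tg, with all 8 markers above every WT library in each of these 3. The sum of 6 myeloid markers was 2.62 to 3.28 in WT, with Cd14 at 0, and 13.8 to 24.4, 9.43 to 40.9 and 26.4 to 53.2 in the same 3 genotypes. The sum of Cd8a and Cd8b1, most of it Cd8b1, was 17.5 to 20.6 in WT and 20.4 to 30.3 in DKO. It was 29.7 to 78.8 in the same 3 genotypes, and in miR-23 Tg, at 7.95 to 12.3, it lay below WT. Of the 4 NK cell markers, summed levels stood at 9.73 to 14.6 in WT, 8.24 to 11.7 in cluster Tg, 7.64 to 12.0 in miR-27 Tg and 37.1 to 48.4 in miR-24 Tg. In DKO the sum was 10.3 to 19.2 and in miR-23 Tg 7.25 to 10.4. Most of this sum was Klrd1, with a mean of 11.5 in WT. In every library, 2 of the 4 markers in cluster Tg and 3 in each of miR-27 Tg and miR-24 Tg lay above every WT library. None did in miR-23 Tg or DKO. The summed level of 4 thymocyte markers was 6.30 to 7.93 in WT, 3.72 to 4.70 in miR-23 Tg and 10.8 to 24.9 in the 3 genotypes. Nearly all of it was Dntt, while Rag2 was at 0 throughout and Ptcra, at most 0.0408 in WT, was at 0 in those 3. The part of these other cells in the results below was not tested, and in such bulk samples fewer cells of a type cannot be told apart from less RNA per cell.

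The label of naive CD4 T cells fitted the defining markers. The summed level of 7 naive CD4 T cell markers, Cd4 and Cd3e among them, lay between 2694 and 3276 RPKM in all 18 libraries. In WT the 36 signalling genes had a median level of 142.6 RPKM against 15.4 over all genes tested, and 22 of them exceeded 100 RPKM. The highest was Dgka, a kinase that removes the messenger diacylglycerol, at 846 ± 62.1 RPKM, followed by the scaffold adaptor Lat at 752 ± 35.5, Lck at 638 ± 17.7, the receptor chain Cd3g at 592 ± 50.8 and the phosphatase Ptprc (CD45) at 565 ± 28.8. Taken as mean ± SD, the spreads of Dgka and Lat overlap, as do those of Lck and Cd3g and of Cd3g and Ptprc, and so do those of Cd3e, Cd2 and Cd247, at 327 ± 31.0, 323 ± 23.3 and 315 ± 12.6. The lowest were the Ras exchange factor Sos1 at 12.2 ± 0.988, Nck1 at 21.0 ± 2.62 and the adaptor Sla2 at 29.2 ± 1.39. Only Sos1 lay below the middle of all genes tested, at percentile 43.3. The WT libraries agreed closely, with a median coefficient of variation of 5.37% over the 36 genes. It was widest for the adaptor Trat1, which binds the TCR complex, at 23.8%.

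**Figure D1:**
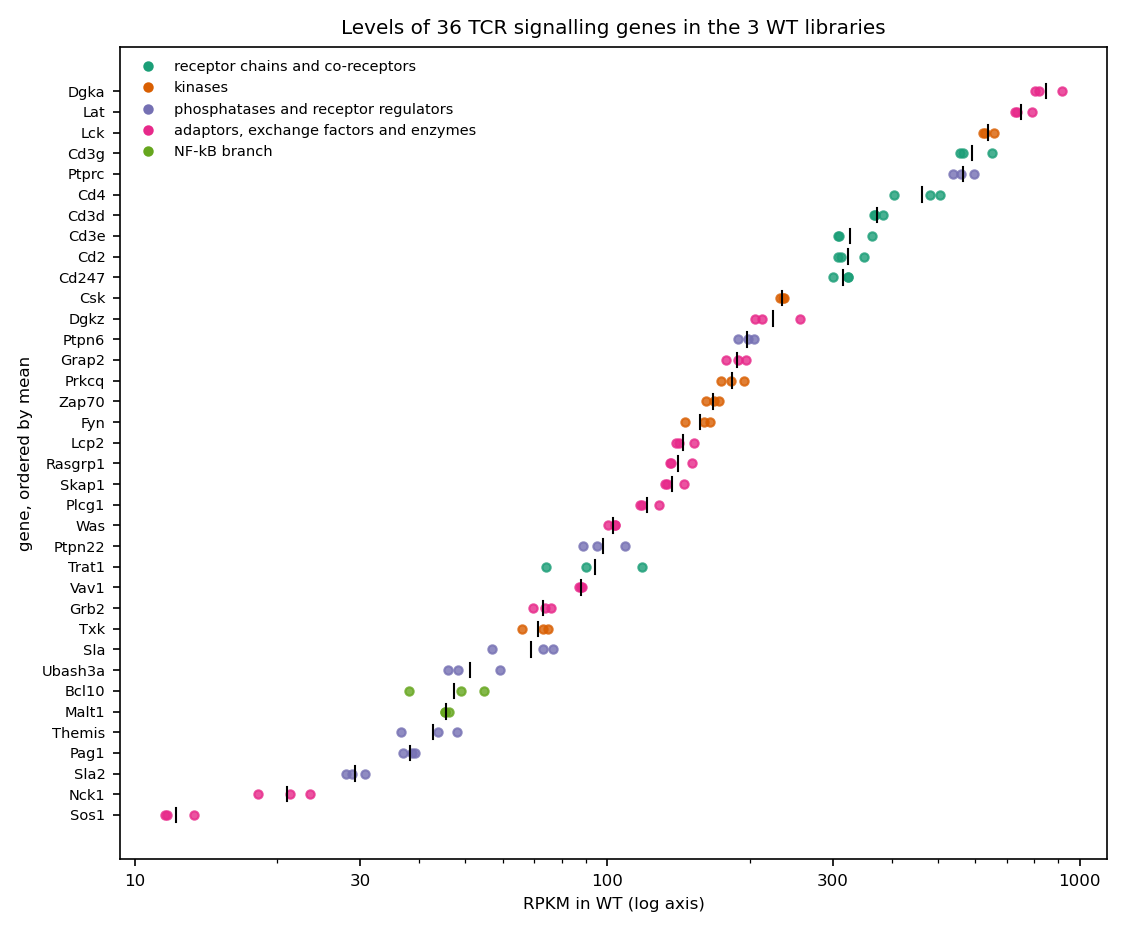
Level of each of the 36 genes in the 3 WT libraries (points) with their mean (bar), in RPKM on a log axis, genes ordered by mean and coloured by role. Levels run from Sos1 at 12.2 RPKM to Dgka at 846, and 22 genes lie above 100.

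The 2 libraries that stood apart moved these genes by transcript length. In miR-27 Tg replicate 3, genes with short transcripts were high and those with long ones low against the other miR-27 Tg libraries. Cd3d was at 360.2, 349 and 1389 RPKM in replicates 1, 2 and 3, and Lat at 984, 910.3 and 2383, while the lipase Plcg1 was at 153, 141 and 16.9 and Themis, a regulator of TCR signal strength, at 50.5, 50.7 and 9.36. Relative to the mean of replicates 1 and 2 this is a factor of 3.91 for Cd3d (transcript of 1617 bases) and 0.115 for Plcg1 (5107 bases). In DKO replicate 3 the same genes moved the same way by less, with Cd3d at 2.01 times and Plcg1 at 0.575 times the mean of the other DKO libraries. Over the 36 genes, the Spearman correlation of the deviation from the WT mean with transcript length was -0.79 in miR-27 Tg replicate 3 and -0.81 in DKO replicate 3, and between -0.10 and 0.69 in the other 16 libraries. Over 9875 genes with a length it was -0.64 and -0.68, so the pattern ran through all genes of these libraries and not the signalling genes alone. The 8 genes with transcripts under 2000 bases had median deviations of 1.40 and 0.58 on the log2 scale in the 2 libraries, and the 11 with 4000 bases or more -1.57 and -0.59. These correlations are across genes of 1 library and carry no test. Each result below is given with all 18 libraries and, where it changes, without these 2.

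**Figure D2:**
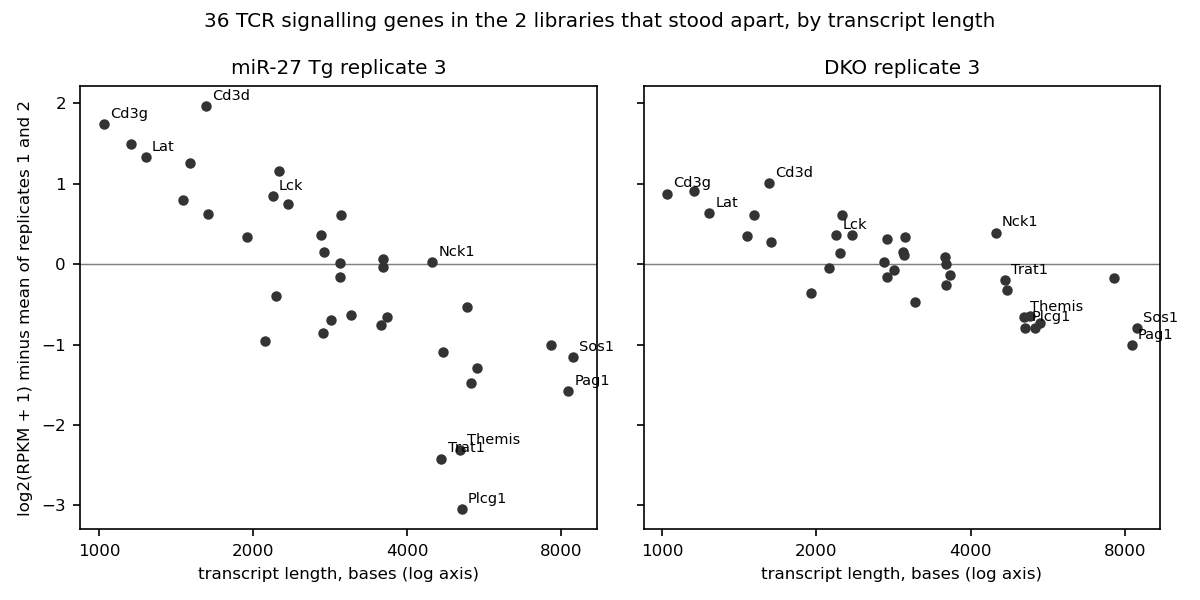
Difference of replicate 3 from the mean of replicates 1 and 2 on the log2(RPKM + 1) scale (vertical axis) against transcript length in bases (log axis) for the 36 genes in miR-27 Tg (left) and DKO (right), 1 point a gene. Short transcripts such as Cd3g and Cd3d lie above 0 and long ones such as Pag1 and Plcg1 below it, and the range is wider in miR-27 Tg.

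**Figure D3:**
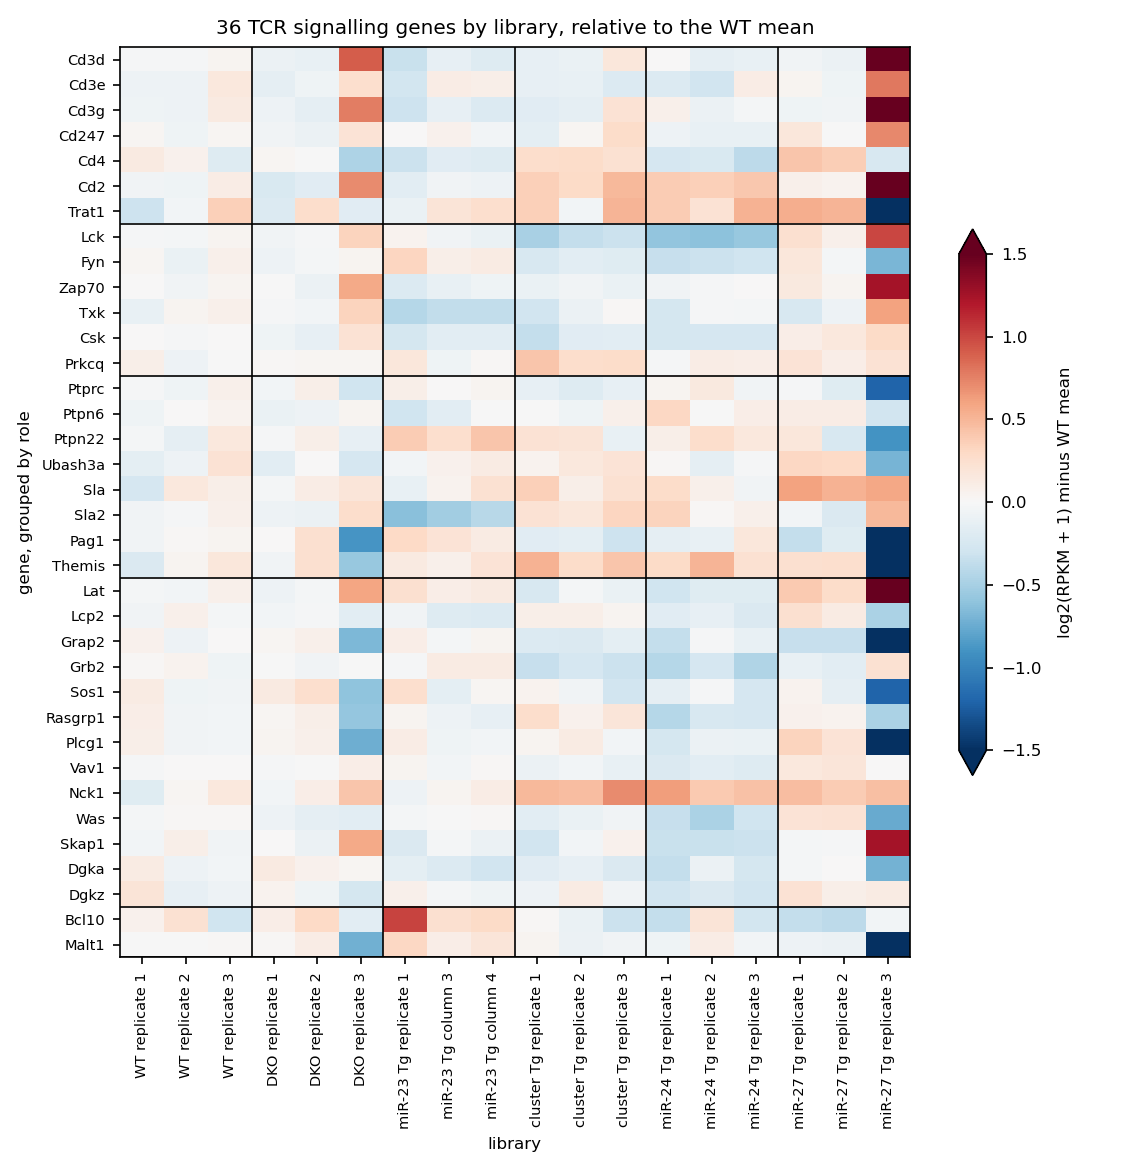
Difference from the WT mean on the log2(RPKM + 1) scale for each of the 36 genes (rows, grouped by role) in each of the 18 libraries (columns, grouped by genotype), with red above and blue below WT and the scale capped at 1.5. The 2 libraries that stood apart are the most coloured columns, and Nck1 is above the WT mean in every library of miR-24 Tg, miR-27 Tg and cluster Tg.

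Whole-cluster over-expression was compared with WT to see which signalling genes move with all 3 microRNAs together. Nck1 rose, and the other 35 were not called. The kinase Lck and the adaptor Grb2 were lower in every cluster Tg library than in every WT library but did not pass the test with 18 libraries. Differences are log2 fold changes on the log2(RPKM + 1) scale, and a gene is called where limma's Benjamini-Hochberg adjusted p over all 11099 genes is under 0.05. By this rule 1 of 36 was called, while 8.48% of all genes tested were. The median of the 36 was -0.03, and that of all genes 0. The cluster Tg libraries lay wholly above WT for 6 genes and wholly below for 12, against 22.1% and 20.6% of all genes tested. Without the 2 libraries that stood apart, the median standard error of the 36 fell from 0.20 to 0.086, and 8 of 36 were called, beside 29.1% of all genes. The higher ones were then Nck1, Themis, Cd2, the NF-kB-linked kinase Prkcq and Cd4, and the lower ones Lck, Grb2 and Csk.

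Over-expression of miR-24 alone gave no call among the 36 with all 18 libraries, while 3.59% of all genes were called, and 6 of the 36 had an unadjusted p under 0.05. The values leaned downwards. Of the 36, 25 were lower than in WT, with a median of -0.12 against 0.01 over all genes, and the libraries lay wholly below WT for 15 genes and wholly above for 3, against 16.0% and 17.5% of all genes. The adaptors, exchange factors and enzymes were lower in 12 of 13, the exception being Nck1. With quantile normalisation the median of the 36 was -0.04 and that of all genes -0.02. Without the 2 libraries that stood apart, 9 of 36 were lower, beside 8.07% of all genes, and 2 higher, beside 9.38%. The lower ones were the kinases Lck, Csk and Fyn, the co-receptor Cd4, and the downstream Grb2, Rasgrp1, Vav1, Was and Skap1; Cd2 and Nck1 were the higher ones.

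With miR-27 alone over-expressed, Nck1 and Sla rose, 2 of 36, while 8.95% of all genes tested were called. The largest differences among the 36 were falls of long transcripts and rises of short ones, and none of these passed the test. The libraries lay wholly above WT for 6 genes and wholly below for 3, against 15.0% and 12.3% of all genes. In the fit of 16 libraries without those that stood apart, 8 of 36 were called, beside 20.0% of all genes. The higher ones were then Sla, Nck1, Cd4, Lat, Plcg1, Was and Vav1, and the lower one Grap2, an adaptor that joins Lat to Lcp2. Plcg1 changed direction between these fits, from -0.75 (SE 0.57, adjusted p = 0.401) to 0.27 (SE 0.08, adjusted p = 0.0337), as did Was, an actin regulator, from -0.11 to 0.21.

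With miR-23 alone over-expressed, limma called none of the 36, with 0.0450% of all genes called and 3 of the 36 at an unadjusted p under 0.05. The largest difference was that of Sla2, at -0.52, and the libraries lay wholly above WT for 6 genes and wholly below for 8, against 15.2% and 13.6% of all genes. In the fit of 16 libraries, limma called Sla2 and the kinase Txk lower (-0.39, SE 0.09, adjusted p = 0.0358), 2 of 36 beside 3.89% of all genes.

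Loss of both clusters moved no signalling gene past the test. Limma called 0 of 36 and 0% of all genes tested in DKO, none of the 36 had an unadjusted p under 0.05, and log2 differences from WT ran from -0.21 to 0.24. The 95% confidence interval of the difference lay within a log2 of 1 on both sides for 32 of 36 genes and within 0.5 for 16, so smaller changes were not detectable in most. The DKO libraries lay wholly below WT for Was and wholly above for no gene, against 2.52% and 2.44% of all genes. In the fit of 16 libraries, 0 of 36 were called, beside 0.0180% of all genes. The cluster Tg libraries lay wholly above DKO for 6 genes and wholly below for 6, against 19.7% and 17.9% of all genes. Set against each other, cluster Tg and DKO gave 0 calls of 36 with all libraries and 6 at an unadjusted p under 0.05, with 11.3% of all genes called. Without the 2 libraries there were 7 calls beside 27.6% of all genes: Cd2, Nck1, Sla2 and Prkcq higher in cluster Tg, and Lck, Pag1 and Grb2 lower. The comparisons with WT share its 3 libraries, and both comparisons of cluster Tg share its own.

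**Figure D4:**
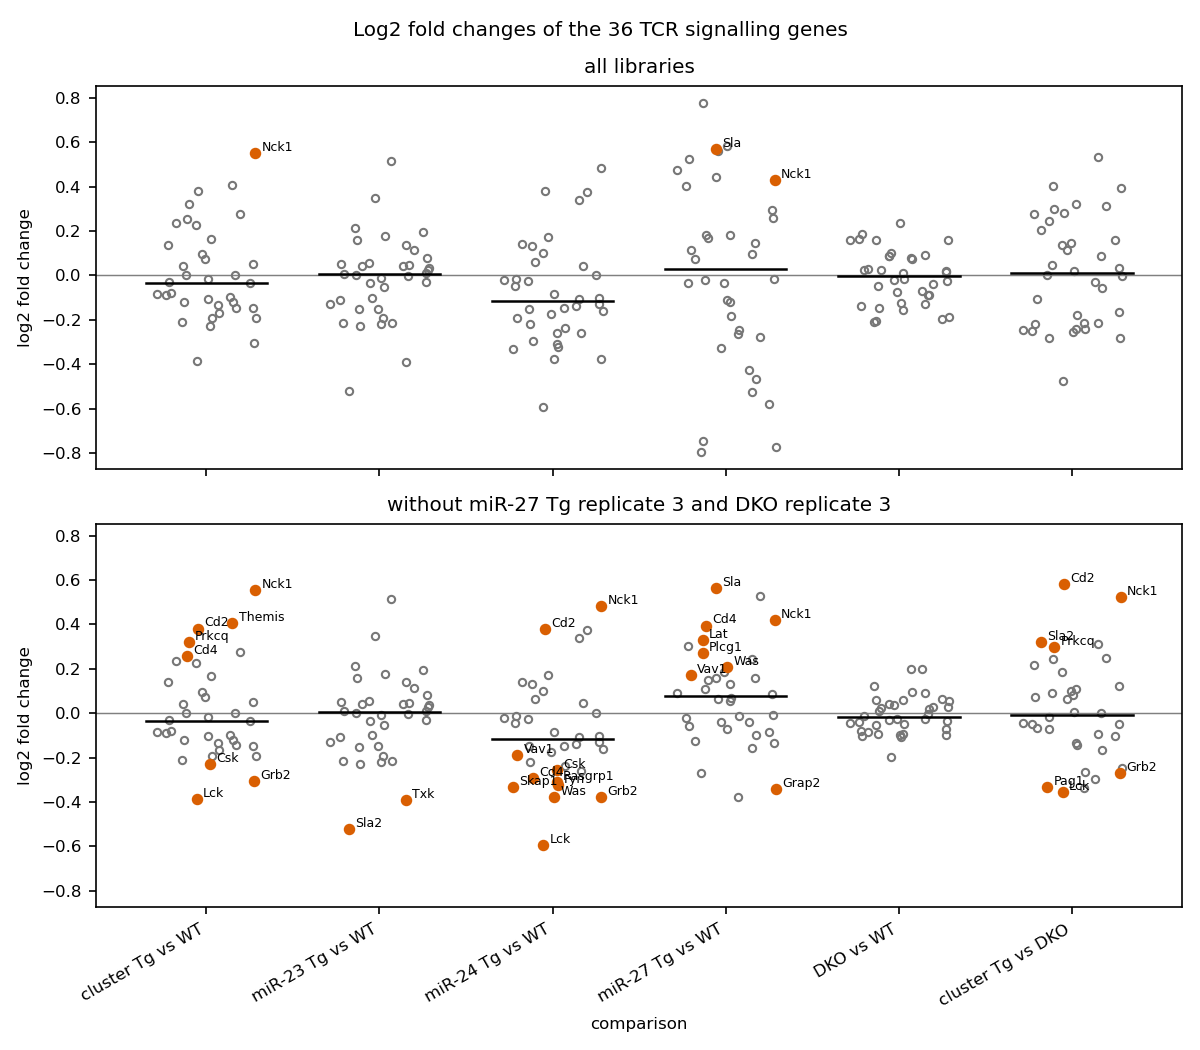
Log2 fold change of each of the 36 genes (points) in each comparison, from all 18 libraries (top) and from the 16 libraries left without the pair that stood apart (bottom), with the median of the 36 as a bar and called genes filled and named. Only Nck1 and Sla are filled in the top panel, and no gene is filled for DKO in either.

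Among the receptor chains and co-receptors, none of 7 was called in any comparison with all libraries. The 4 signalling chains stayed near WT in most libraries. The delta chain Cd3d was at 368, 367 and 382 RPKM for WT, 343, 347 and 421 for cluster Tg, 296, 341 and 325 for miR-23 Tg, 374, 339 and 344 for miR-24 Tg and 350.2, 346 and 700.5 for DKO. Its highest libraries were the 2 that stood apart, and its difference in DKO, 0.24 (SE 0.41), was the largest of the 36 there and turned to -0.10 without them. The gamma chain Cd3g was at 567, 559 and 650.5 for WT, 523, 537 and 689 for cluster Tg, 475, 542 and 512 for miR-23 Tg, 623, 557 and 577 for miR-24 Tg, 565, 569 and 1903 for miR-27 Tg and 559, 539.5 and 1009 for DKO. The epsilon chain Cd3e was at 309.5, 308 and 363 for WT, 298, 302 and 283 for cluster Tg, 268, 352 and 345 for miR-23 Tg, 282, 267 and 352 for miR-24 Tg, 336, 313 and 565 for miR-27 Tg and 298, 311 and 387 for DKO. These chains overlapped WT in every genotype except for Cd3d and Cd3g in miR-23 Tg and Cd3e in cluster Tg, whose libraries all lay below WT. The zeta chain Cd247, which carries most of the tyrosine motifs, was at 322, 301 and 323 for WT, 284, 323 and 381 for cluster Tg, 317, 329 and 306 for miR-23 Tg, 298, 292 and 291 for miR-24 Tg, 355, 315 and 518 for miR-27 Tg and 303, 296 and 362 for DKO. The 3 miR-24 Tg values of Cd247 lay below WT by a log2 of -0.10 (SE 0.17).

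Cd4, the co-receptor that brings Lck to the TCR, differed in direction between transgenics. It was at 506, 481 and 404 RPKM for WT, 471, 459 and 334 for DKO, 370.2, 410.0 and 404 for miR-23 Tg, 552, 561 and 542 for cluster Tg, 386, 394 and 351 for miR-24 Tg and 617, 598 and 390.4 for miR-27 Tg. All cluster Tg libraries lay above WT and all miR-24 Tg libraries below, and miR-27 Tg was above WT except in replicate 3. With 18 libraries the adjusted p was 0.147 in limma's F test over the 6 genotypes. In the fit of 16 libraries it was 0.000698, and the differences from WT were 0.26 in cluster Tg (SE 0.09, adjusted p = 0.0445), -0.29 in miR-24 Tg (SE 0.09, adjusted p = 0.0373) and 0.40 in miR-27 Tg (SE 0.10, adjusted p = 0.0153). The cells were sorted on the CD4 protein, the product of this gene. The adhesion receptor Cd2 was at 312, 308 and 349.8 for WT, 415, 395 and 454 for cluster Tg and 421, 412 and 427 for miR-24 Tg, all above WT, and at 288, 310.2 and 305 for miR-23 Tg, 339.9, 335 and 951 for miR-27 Tg and 275, 287 and 526 for DKO. Its difference of 0.38 in each of the first pair was called without the 2 libraries (SE 0.07; adjusted p = 0.00201 and 0.00372). Trat1 had the widest WT spread and was not called in any of these fits.

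Lck, the kinase that starts the cascade, varied over the genotypes (limma F = 6.71, adjusted p = 0.0180, 1 of 6 genes of the 36 that this test called, while 19.0% of all genes were called and 50.9% in the fit of 16 libraries). It was at 631, 625 and 658 RPKM for WT, 617, 632 and 802 for DKO, 661, 614 and 595 for miR-23 Tg, 455, 499 and 512 for cluster Tg, 424, 416 and 429 for miR-24 Tg and 754, 675 and 1284 for miR-27 Tg. The order was miR-24 Tg lowest, then cluster Tg, with neither overlapping the other or WT, and every miR-27 Tg library above WT; miR-23 Tg and DKO overlapped WT. The differences from WT were -0.59 (SE 0.20) in miR-24 Tg, -0.39 (SE 0.20) in cluster Tg and 0.44 (SE 0.20) in miR-27 Tg, with adjusted p = 0.137, 0.315 and 0.187. In the fit of 16 libraries the first 2 were called, at adjusted p = 0.0005 and 0.00279 with SE 0.08, while miR-27 Tg stood at 0.16 (adjusted p = 0.210). Both lower values were also called with quantile normalisation (adjusted p = 0.0181 and 0.0341). The F test for Lck passed under each of the 25 alternatives run, with adjusted p from 0.000171 to 0.0469.

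Csk, which restrains Lck by phosphorylating its tail, also varied over the genotypes (F = 5.08, adjusted p = 0.0411). It was at 236, 232 and 235 RPKM for WT, 224, 216 and 274 for DKO, 196, 211 and 210.0 for miR-23 Tg, 183, 209 and 210.1 for cluster Tg, 195, 197 and 196 for miR-24 Tg and 251, 263 and 286 for miR-27 Tg. All libraries of miR-23 Tg, cluster Tg and miR-24 Tg lay below WT and all of miR-27 Tg above it. This call held under 8 of 25 alternatives, with adjusted p = 0.739 under quantile normalisation. Zap70, which docks on the phosphorylated chains, was at 168, 162 and 172 for WT, 167, 158 and 249 for DKO, 145, 155 and 159 for miR-23 Tg, 156, 161 and 156 for cluster Tg, 162, 165 and 168 for miR-24 Tg and 185, 172 and 398 for miR-27 Tg. Apart from the 2 libraries its values kept within 145 to 185, and no comparison called it; all cluster Tg and miR-23 Tg libraries lay just below WT. Of the other kinases, Fyn, which shares substrates with Lck, lay below WT in every cluster Tg and miR-24 Tg library (-0.19 and -0.32), and Prkcq lay above WT in every cluster Tg and miR-27 Tg library (0.32 and 0.17), without passing the test with 18 libraries.

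**Figure D5:**
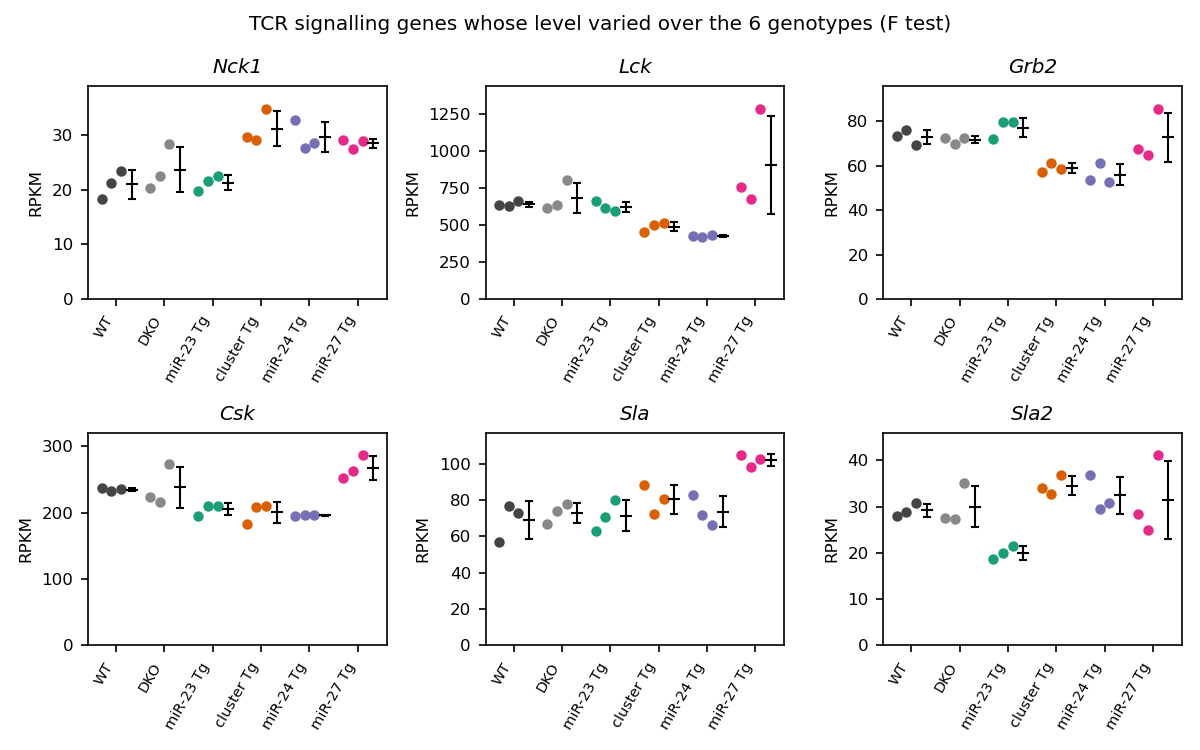
RPKM of the 6 genes of the 36 whose level varied over the genotypes in the F test, 1 point a library, with mean and SD (n = 3) beside each genotype. Nck1 is higher in miR-24 Tg, miR-27 Tg and cluster Tg, Lck and Grb2 are lowest in cluster Tg and miR-24 Tg, Sla is highest in miR-27 Tg and Sla2 lowest in miR-23 Tg.

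Of the phosphatases and receptor regulators, the related adaptors Sla and Sla2, which promote removal of the TCR from the cell surface, were both called by the F test. Sla was at 57.0, 76.6 and 72.9 RPKM for WT, 66.7, 74.1 and 77.8 for DKO, 62.9, 70.8 and 80.2 for miR-23 Tg, 88.0, 72.4 and 80.4 for cluster Tg, 82.8, 71.9 and 66.1 for miR-24 Tg and 105, 98.3 and 103 for miR-27 Tg. The 3 miR-27 Tg libraries lay above all 15 others, by 0.57 over WT (SE 0.13, adjusted p = 0.0157), and the value was 0.56 without replicate 3. The call was lost under quantile normalisation (adjusted p = 0.160), in a fit of the 6 libraries compared (adjusted p = 0.253) and without WT replicate 1 (adjusted p = 0.0802). Sla2 was at 28.0, 28.8 and 30.7 for WT, 27.5, 27.3 and 35.1 for DKO, 18.6, 19.9 and 21.6 for miR-23 Tg, 34.1, 32.8 and 36.8 for cluster Tg, 36.9, 29.4 and 30.9 for miR-24 Tg and 28.4, 25.0 and 41.1 for miR-27 Tg. All miR-23 Tg libraries lay below all 15 others, at -0.52 against WT (SE 0.16, adjusted p = 0.351), and the F test called the gene (adjusted p = 0.0279). That call was lost under 6 of 25 alternatives, with adjusted p up to 0.153, among them each fit without 1 of the miR-23 Tg libraries. The F test call of Sla (F = 4.91, adjusted p = 0.0455) was lost under 16 of 25, with adjusted p up to 0.308. In the GENCODE annotation 532 of the 2973 exon bases of Sla2 overlap Rab5if on the opposite strand. Since the use of strand is not given, reads of Sla2 and Rab5if cannot be told apart there.

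Pag1, the membrane adaptor that anchors Csk, had the largest difference of the 36 in miR-27 Tg, -0.80 (SE 0.35, adjusted p = 0.176). It was at 36.9, 38.6 and 39.2 RPKM for WT, 38.3, 45.4 and 20.3 for DKO, 47.4, 44.3 and 41.9 for miR-23 Tg, 33.8, 34.4 and 30.5 for cluster Tg, 34.7, 35.4 and 43.0 for miR-24 Tg and 29.5, 33.7 and 9.89 for miR-27 Tg. All miR-27 Tg and cluster Tg libraries lay below WT, but the lowest value came from miR-27 Tg replicate 3, and without it the difference was -0.27 (adjusted p = 0.0884). Themis was at 36.5, 43.7 and 48.1 for WT, 41.0, 50.3 and 28.3 for DKO, 46.8, 44.9 and 49.2 for miR-23 Tg, 61.4, 51.7 and 57.3 for cluster Tg and 52.1, 60.8 and 50.0 for miR-24 Tg. All libraries of the last pair lay above WT, and its difference between cluster Tg and DKO, 0.53 (SE 0.44, adjusted p = 0.542), was the largest of the 36 in that comparison. The phosphatases Ptprc, Ptpn6 and Ptpn22 and the regulator Ubash3a were not called in any comparison, with differences from -0.47 for Ptprc in miR-27 Tg to 0.35 for Ptpn22 in miR-23 Tg.

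Among the adaptors, Nck1, which links the phosphorylated complex to actin, gave the clearest difference. It was at 18.2, 21.3 and 23.5 RPKM for WT, 20.2, 22.4 and 28.3 for DKO, 19.8, 21.6 and 22.6 for miR-23 Tg, 29.7, 29.1 and 34.8 for cluster Tg, 32.7, 27.6 and 28.6 for miR-24 Tg and 29.1, 27.5 and 28.8 for miR-27 Tg. All 9 libraries of the last 3 genotypes lay above all WT and miR-23 Tg libraries, and DKO replicate 3 reached into their range. The rise over WT was 0.55 in cluster Tg (SE 0.13, adjusted p = 0.0140) and 0.43 in miR-27 Tg (SE 0.13, adjusted p = 0.0498), and miR-24 Tg stood at 0.48 (SE 0.13, adjusted p = 0.0525). The cluster Tg call was lost without cluster Tg replicate 3 (adjusted p = 0.0661) or WT replicate 1 (adjusted p = 0.0769) and with the length trend removed (adjusted p = 0.0528). The miR-27 Tg call held under 3 of 14 alternatives, with adjusted p = 0.205 without WT replicate 1 at the most among single libraries left out. The F test called Nck1 (F = 7.31, adjusted p = 0.0138) under each of 25 alternatives, with adjusted p up to 0.0396. The same 3 genotypes had the higher B cell and myeloid marker sums given above, whose part in the rise of Nck1 was not tested.

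Grb2, which brings Sos1 to Lat, followed the pattern of Lck in cluster Tg and miR-24 Tg. It was at 73.6, 76.0 and 69.5 RPKM for WT, 72.4, 70.0 and 72.8 for DKO, 72.1, 79.9 and 79.9 for miR-23 Tg, 57.0, 61.3 and 58.4 for cluster Tg, 53.8, 61.3 and 52.9 for miR-24 Tg and 67.6, 65.1 and 85.7 for miR-27 Tg. The 6 libraries of cluster Tg and miR-24 Tg lay below the 12 others. The differences from WT were -0.31 (SE 0.10, adjusted p = 0.0950) and -0.38 (SE 0.10, adjusted p = 0.0640), both called without the 2 libraries (adjusted p = 0.00436 and 0.00226) and under quantile normalisation (adjusted p = 0.0350 and 0.0290). The F test gave adjusted p = 0.0209 and was lost under 5 of 25 alternatives, with adjusted p up to 0.105. Lat, the scaffold on which these proteins gather, was at 736, 728 and 793 for WT, 711, 739.7 and 1130.2 for DKO, 891, 802 and 829 for miR-23 Tg, 639, 737 and 701 for cluster Tg, 611, 665 and 664 for miR-24 Tg and 984, 910.3 and 2383 for miR-27 Tg. Every miR-27 Tg library lay above WT, at 0.78 (SE 0.29, adjusted p = 0.120) with replicate 3 and 0.33 (SE 0.10, adjusted p = 0.0315) without it and DKO replicate 3.

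The remaining adaptors and enzymes, among them Lcp2, Sos1, Rasgrp1, Vav1, Skap1 and Dgkz, were not called with 18 libraries. In miR-24 Tg every library lay below WT for Lcp2, Rasgrp1, Plcg1, Vav1, Was, Skap1, Dgka and Dgkz, with differences from -0.15 for Plcg1 to -0.38 for Was. Of the NF-kB branch, the scaffold Bcl10 stood 0.51 above WT in miR-23 Tg without passing the test, with all miR-23 Tg libraries above WT. Its partner, the protease Malt1, stood at 0.20 there and at -0.58 in miR-27 Tg, which became -0.08 without the 2 libraries.

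Seed matches were counted in the 3′ UTR of 1 GENCODE transcript a gene, on the sense strand only, as the 7 letters that pair with bases 2 to 8. AATGTGA, for miR-23, was found in 9 of the 36 genes, against 15.2% of 9799 genes tested that have a 3′ UTR, ACTGTGA, for miR-27, in 6, against 15.6%, and CTGAGCC, for miR-24, in 9, against 17.2%. The median 3′ UTR was 1073.5 bases in the 36 and 992 in all, and the matches for miR-23 and miR-27 both end in TGTGA. Neither Lck nor Sla2 has any of the 3 matches. A match is a description of the sequence and not a measured site. The matches in the 4 other genes that varied are shown in windows of 30 bases with the match in capitals, each from the 3′ UTR in the build GRCm38.
Nck1, miR-27: tgccatatttatgccACTGTGAaataagcc
Nck1, miR-27: ttggaggtgtaaaatACTGTGActggtttc
Nck1, miR-23: taaaaataagctaacAATGTGAgttgaatt
Grb2, miR-27: ggtaggtagtgattaACTGTGAataaacgt
Csk, miR-24: gggcctgaacttgaaCTGAGCCccagccgg
Sla, miR-23: catgatgtaaccctgAATGTGAaacaggag
Sla, miR-23: ttttctgttgtggtcAATGTGAttggaact
Sla, miR-24: gaagggattaaatctCTGAGCCgaatggaa
The windows of Nck1 lie at chr9:100494685-100494714, chr9:100493822-100493851 and chr9:100492396-100492425, that of Grb2 at chr11:115644060-115644089, that of Csk at chr9:57627214-57627243 and those of Sla at chr15:66781698-66781727, chr15:66780965-66780994 and chr15:66782035-66782064, all on the minus strand. Nck1 and Sla thus rose in miR-27 Tg, Nck1 with 2 miR-27 matches and Sla with none. Grb2 stood at -0.01 in miR-27 Tg, where its match is to that microRNA, and at -0.38 in miR-24 Tg, for which it has none. Csk, with its miR-24 match, stood at -0.26 in miR-24 Tg and -0.19 in miR-23 Tg.

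Over all 36 genes, the differences of those with and without a match lay close together in miR-24 Tg and miR-23 Tg and further apart in miR-27 Tg. In miR-24 Tg the 9 with a miR-24 match had a median of -0.14 and the 27 without -0.11, and over all genes the medians were -0.06 and 0.02. In miR-23 Tg the 9 with a miR-23 match had a median of 0.04 and the others -0.01, against 0.03 and 0.01 over all genes. Genes with a miR-23 match were thus not the lower ones there. In miR-27 Tg the 6 with a miR-27 match had a median of -0.11 and the 30 without 0.11, against -0.15 and 0.07 over all genes, and without the 2 libraries the values were 0.01 and 0.09 against -0.05 and 0.02. These medians are descriptions with no test.

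Further genes of the pathway were read from a list of 49 outside the 36, all of them tested. In cluster Tg, 4 of 49 were called, near the 8.48% of all genes; 3 rose and 1 fell. Ppp3ca, a catalytic subunit of calcineurin, which passes the calcium signal on, rose by 0.71 (SE 0.11, adjusted p = 0.00116), Nck2, the close relative of Nck1, by 0.41 (SE 0.08, adjusted p = 0.00610), and the adaptor Dok2 by 0.53 (SE 0.14, adjusted p = 0.0268). The actin regulator Evl fell by 0.69 (SE 0.17, adjusted p = 0.0190). In miR-24 Tg Ppp3ca and Nck2 rose by 0.69 and 0.38, and the inhibitory receptor Cd5 and the kinase Map4k1, which restrains the TCR signal, fell by 0.62 and 0.48. Cd5 moved the other way in miR-27 Tg, where it rose by 0.54, as did the calcium channel Orai1 by 0.80, Dok2 by 0.71 and the adaptor Sh3bp2 by 0.50. Both calls of Cd5 were lost under quantile normalisation (limma adjusted p = 0.0596 and 0.122). In miR-27 Tg 3 genes fell, among them the ubiquitin ligase Cblb by 0.73 and Rasa2, which switches Ras off, by 0.73. Without the 2 libraries that stood apart they stood at -0.50 and -0.41 and were still called. With 18 libraries none of the 49 was called in miR-23 Tg or DKO. Between cluster Tg and DKO 4 were higher and 2 lower, with Ubash3b, a phosphatase related to Ubash3a, at 0.76 and the GTPase Cdc42 at -0.40 (adjusted p = 0.0349), a call lost under quantile normalisation (adjusted p = 0.458). The F test called 11 of the 49, where 19.0% of all genes were called. The counts were thus 4 of 49 in miR-24 Tg, beside 3.59% of all genes, 7 in miR-27 Tg, beside 8.95%, and 6 between cluster Tg and DKO, beside 11.3%. In the fit of 16 libraries each of the calls named held, and the counts rose to 18 in cluster Tg (10 higher, 8 lower), 4 in miR-23 Tg (all higher), 18 in miR-24 Tg (9 higher, 9 lower), 16 in miR-27 Tg (11 higher, 5 lower), 18 between cluster Tg and DKO (10 higher, 8 lower) and 38 in the F test, beside 29.1%, 3.89%, 17.5%, 20.0%, 27.6% and 50.9% of all genes, and stayed at 0 in DKO.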

How the data were processed

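RNA sequencing of sorted naive CD4 T cells was deposited as 1 table of RPKM values with 23953 gene rows. The authors made these RPKM values with STAR 2.2.0c and HOMER on the mouse build mm9, per the submitters' processing notes. No source used here gives the annotation or says whether counting used strand. The 36 genes and the other lists were chosen with earlier results of these data known. A gene was tested where 3 or more of the 18 libraries reached 1 RPKM, and the tests were made on log2(RPKM + 1) with limma 3.58.1 (lmFit, eBayes with trend) in R 4.3.3, over all 18 libraries with genotype as the only term, and p-values were adjusted over all 11099 genes by the Benjamini-Hochberg method, with 0.05 as the threshold. A fold change on this scale understates the change of low genes. The code was tested on simulated data. Every library's values are given for genes called in any comparison, for Cd3d, Cd3e, Cd3g, Cd247, Cd4, Lck, Zap70 and Lat, and for the gene with the largest difference in each comparison; Cd2 and Plcg1 were added after their values were seen. Transcript lengths and 3′ UTRs are those of 1 principal GENCODE M21 transcript a gene (GRCm38). Alternatives changed the pseudocount, the filter, the libraries in the fit, the scaling and the replicate block, and 1, the removal of the length trend, was chosen after seeing the data. The 2 miR-23 Tg columns of 1 name correlated at 0.954 on the log2 scale, the highest of all pairs, but held no identical values in 10118 genes, and were used as separate libraries.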

Additional observations from a re-analysis of the deposited data

How the results depend on the processing

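None of the 36 called with 18 libraries changed direction under an alternative run, but without the 2 libraries that stood apart Plcg1 and Was in miR-27 Tg were called with the opposite sign (0.27 and 0.21, from -0.75 and -0.11), as was Pag1 between cluster Tg and DKO (-0.33, from 0.00), and Cd3d in DKO moved from 0.24 to -0.10 without a call. The number of the 36 called moved as follows. With a pseudocount of 0.1, 1 was called in miR-24 Tg (3.93% of all genes). With no filter on low values, 2 were called in cluster Tg, 1 in miR-24 Tg, 1 in miR-27 Tg and 1 between cluster Tg and DKO (5.92%, 2.56%, 6.04% and 7.84%). In fits of only the 2 genotypes compared, 5 were called in cluster Tg, 7 in miR-24 Tg and 0 in miR-27 Tg, where 20.7%, 7.67% and 0.387% of all genes were. Quantile normalisation gave 3 in cluster Tg, 2 in miR-24 Tg, 0 in miR-27 Tg and 1 between cluster Tg and DKO (10.6%, 3.77%, 8.71% and 12.7%), and median-ratio scaling 1 in miR-27 Tg (8.81%). The F test count went from 6 to 7 with no filter, 4 with quantile normalisation and 5 with median-ratio scaling (13.4%, 20.4% and 19.2%). Without the 2 libraries that stood apart (miR-27 Tg and DKO, replicate 3 of each) the counts were 8 in cluster Tg, 2 in miR-23 Tg, 11 in miR-24 Tg, 8 in miR-27 Tg, 7 between cluster Tg and DKO and 22 in the F test. Over all genes the shares called were, in the same order, 29.1%, 3.89%, 17.5%, 20.0%, 27.6% and 50.9%. With the transcript length trend removed, an alternative chosen after seeing the data, the counts were 4 in cluster Tg, 4 in miR-24 Tg, 5 in miR-27 Tg, 4 between cluster Tg and DKO and 15 in the F test, where 15.5%, 8.13%, 16.1%, 19.2% and 34.6% of all genes were called. The cause was not tested. Leaving out 1 replicate at a time gave 0 to 1 in cluster Tg, 0 to 2 in miR-27 Tg, 0 to 1 between cluster Tg and DKO, 2 to 12 in the F test and 0 in miR-23 Tg, miR-24 Tg and DKO. Of 11099 genes these fits called 419 to 710 in cluster Tg, 533 to 1223 in miR-27 Tg and 180 to 303 in miR-24 Tg. They called 561 to 901 between cluster Tg and DKO, 1575 to 3809 in the F test, 1 in miR-23 Tg and 0 in DKO. Of the 36, DKO gave 0 under each alternative run.

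With the replicate number as a block, 1 of the 36 was called in miR-27 Tg and 2 in the F test (7.68% and 14.9% of all genes). Nck1 lost its call in miR-27 Tg (adjusted p = 0.0598), and Csk, Grb2, Sla and Sla2 theirs in the F test (limma adjusted p = 0.0872, 0.105, 0.0941 and 0.153). Libraries of the same number correlated in their deviations with a median r of 0.070 over 35 pairs, 12 of them above 0.1, against -0.041 over 70 pairs of different numbers, and 10 of 16 libraries correlated best with their own number, values that lean towards shared numbers as a hint from the data. The highest r, 0.58, was between miR-27 Tg replicate 3 and DKO replicate 3, the 2 libraries that stood apart. The lowest, -0.47, was between miR-27 Tg replicate 2 and DKO replicate 3. Among replicates 1 and 2 of miR-27 Tg and DKO, r was 0.21 and 0.29 for pairs of the same number. It was 0.28 and 0.30 for pairs of different numbers, so these high same-number values show no lean towards shared numbers. Not every pair was above 0.1 and the labels do not say what a number shares, so the fit without the block was kept. For miR-23 Tg the block could not be fitted, since 2 of its columns carry no number. Absolute depth is unknown, and with 3 libraries a genotype the median standard error of 0.20 on the log2 scale limits what could be called.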
